A study of Mus musculus with 8 samples.

Results

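The nuclear genes for the subunits of the mitochondrial respiratory chain were followed through sorted mouse lung epithelium. Genes were chosen by symbol: Nduf followed by a, b, c, s or v (but not Ndufaf), Uqcr, Sdha to Sdhd, Cox4 to Cox8, and Atp5, with symbols that mark a pseudogene to be left out, of which there were none. That gave 87 of the 25124 genes in the table, among them Ndufa11b, which RefSeq classes as a transcribed pseudogene, with 40 for complex I, 4 for complex II, 8 for complex III, 18 for complex IV and 17 for complex V. Of these, 60 averaged 10 normalized counts or more across all 8 libraries and were tested, namely 27, 4, 8, 10 and 11 in the order of the complexes. The 13 subunits encoded by mitochondrial DNA were not analysed here.

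The cells came from lungs of C57BL/6 mice, were sorted by flow cytometry as epithelium, and gave total RNA for sequencing. The sample titles name them airway epithelial cells. The 4 groups of 2 libraries were STAT3-cKO given house dust mite (cKO HDM), STAT3-WT given house dust mite (WT HDM), STAT3-cKO given phosphate-buffered saline (cKO PBS) and STAT3-WT given phosphate-buffered saline (WT PBS). STAT3 is a transcription factor switched on by cytokines, and house dust mite (HDM) is an allergen that provokes type 2 inflammation of the airways. The sources used here do not give the promoter that drives the knockout, the cells it acts in, the HDM schedule, age, sex or any pooling of animals. Whether both libraries of a group stem from different mice is not stated either, so the p-values speak of library-to-library spread that could be purely technical.

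Complex I takes electrons from NADH and complex II takes them from succinate. Both pass them to ubiquinone, complex III hands them on to cytochrome c, and complex IV delivers them to oxygen. Complexes I, III and IV pump protons across the inner mitochondrial membrane, and complex V, the ATP synthase, uses the return flow to make ATP. Ciliated airway cells and surfactant-producing alveolar type 2 cells are both rich in mitochondria.

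The libraries held 232556 to 593200 reads, so that single subunit genes rested on few reads. A tested subunit gene had between 10.4 and 398 reads per library on average, with a median of 26.4 over genes. The epithelial genes Epcam (99.7 to 179 normalized counts) and Cdh1 (582 to 861) were present in every library, as were the club cell gene Scgb1a1 (1545 to 4213) and the alveolar type 2 gene Sftpc (765 to 2878). RNA of alveolar cells was thus present beside that of airway cells. Markers of other cells were uneven. The 10 fibroblast and smooth muscle genes took 0.315% to 0.317% of reads in WT HDM libraries and 0.00903% to 0.0288% in the other libraries, and the 12 endothelial genes took 0.265% to 0.276% in WT HDM libraries and 0.0519% to 0.0813% in the others. The first cKO PBS library was the shallowest. Stat3 itself had 76.9 and 92.2 normalized counts in cKO HDM libraries and 134 and 157 in WT HDM libraries, a log2 difference of -0.78 ± 0.39 (limma adjusted p = 0.549). Here and below, log2 differences are between mean log2 values of the normalized count plus 1, are followed by their standard error, and passed where limma's p, adjusted by the Benjamini-Hochberg method over all genes tested, was under 0.05. Under PBS it had 56.9 and 96.5 in the libraries labelled cKO, against 75.8 and 40.9 in WT PBS libraries, so those groups overlapped and the genotypes below are given as labelled.

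Promoter windows from 250 bases before to 50 bases after the annotated start were found for 68 of the 87 genes in RefSeq (GRCm38.p6), 5 of them with 2 windows. Each was searched on both strands for 6 short motifs. The motif of nuclear respiratory factor 1, a known activator of respiratory chain genes, was written as GCGC, any base, T and GCGC, and stood in 17 of the 68 genes (25%), against 5.19% of all 27025 genes with a window. The ETS motif CCGGAAG, bound by the GABP factor among others, also stood in 17 (25%, against 9.93%), and the YY1 motif AAGATGGC in 9 (13.2%, against 3.19%). The SP1 motif GGGCGG was in 28 genes (41.2%, against 38.2%) and TATAAA in 8 (11.8%, against 15.7%). The STAT motif TTCNNNGAA was in 4 genes (5.88%, against 9.55%). Altogether 30 genes held the nuclear respiratory factor 1 or the ETS motif, 4 held both and 15 held none of the 6, and matches of different motifs overlapped in 1 gene. These shares are a description, base composition was not matched, and a match is not a binding site. The stretches below are given 5′ to 3′ on the strand of the gene, with the matches of the named motifs in capitals.

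Sdha, with 3 matches to the nuclear respiratory factor 1 motif, and Sdhd, Cox6a1 and Atp5h, which hold that motif and the ETS motif (as its reverse complement), show the layout of such promoters. They lie at chr13:74350241-74350358, chr9:50603869-50603948, chr5:115348959-115349140 and chr11:115419931-115420080, all on the minus strand.
Sdha: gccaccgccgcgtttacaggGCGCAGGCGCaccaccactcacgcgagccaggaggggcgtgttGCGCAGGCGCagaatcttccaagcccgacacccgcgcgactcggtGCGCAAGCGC
Sdhd: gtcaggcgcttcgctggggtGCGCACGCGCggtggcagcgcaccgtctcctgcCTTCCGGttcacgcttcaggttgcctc
Cox6a1: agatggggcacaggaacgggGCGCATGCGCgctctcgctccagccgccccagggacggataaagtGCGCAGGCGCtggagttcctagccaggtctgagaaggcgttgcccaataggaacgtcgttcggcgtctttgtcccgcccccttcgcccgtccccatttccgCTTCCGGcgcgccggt
Atp5h: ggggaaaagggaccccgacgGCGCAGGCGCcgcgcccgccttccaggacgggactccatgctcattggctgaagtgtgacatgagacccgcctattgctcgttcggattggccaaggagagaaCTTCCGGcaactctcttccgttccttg

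Since the genotype concerns STAT3, the tested genes with a STAT motif are shown as well. Ndufa8 lies at chr2:36049339-36049581 on the minus strand, with 2 STAT matches and 1 nuclear respiratory factor 1 match. Atp5o lies at chr16:91931631-91931674 on the minus strand, and Atp5d at chr10:80142180-80142228 on the plus strand. Atp5d holds another STAT match, TTCGGAGAA, just after one of its annotated starts, and Atp5o a nuclear respiratory factor 1 match after its start, both outside the stretches shown. The fourth gene, Ndufb6, averaged 8.49 normalized counts and was not tested.
Ndufa8: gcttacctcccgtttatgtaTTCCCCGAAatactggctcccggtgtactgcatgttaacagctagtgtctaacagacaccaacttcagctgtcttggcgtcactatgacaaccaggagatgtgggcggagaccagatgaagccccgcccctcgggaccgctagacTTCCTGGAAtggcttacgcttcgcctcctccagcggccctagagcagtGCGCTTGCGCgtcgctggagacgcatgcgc
Atp5o: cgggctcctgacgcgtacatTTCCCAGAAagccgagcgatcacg
Atp5d: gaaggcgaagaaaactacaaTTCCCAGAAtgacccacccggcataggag

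Subunits of the ATP synthase and of cytochrome c oxidase had the highest levels per length. Per kilobase of transcript, Atp5b, the catalytic beta subunit (chromosome 10, 128083307 to 128090388), had 194 ± 34.0 normalized counts, Cox4i1, a nuclear subunit of cytochrome c oxidase, had 134 ± 28.2, and Atp5a1, the alpha subunit of the ATP synthase, had 119 ± 9.52 (SD, n = 8 libraries). Ndufc2, an accessory subunit of complex I, came next with 112 ± 67.9. By complex, the median level per kilobase of the tested genes was 21.7 for complex I, 30.4 for complex II, 32.4 for complex III, 36.0 for complex IV and 38.2 for complex V. Within complex I the range ran from 2.90 to 112, and within complex II from 14.8 to 48.4. Spearman correlations of the subunit levels between pairs of libraries lay between 0.41 and 0.83, with a median of 0.61 over 28 pairs, against 0.70 for all 7512 genes tested, as a description across genes.

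**Figure D1:**
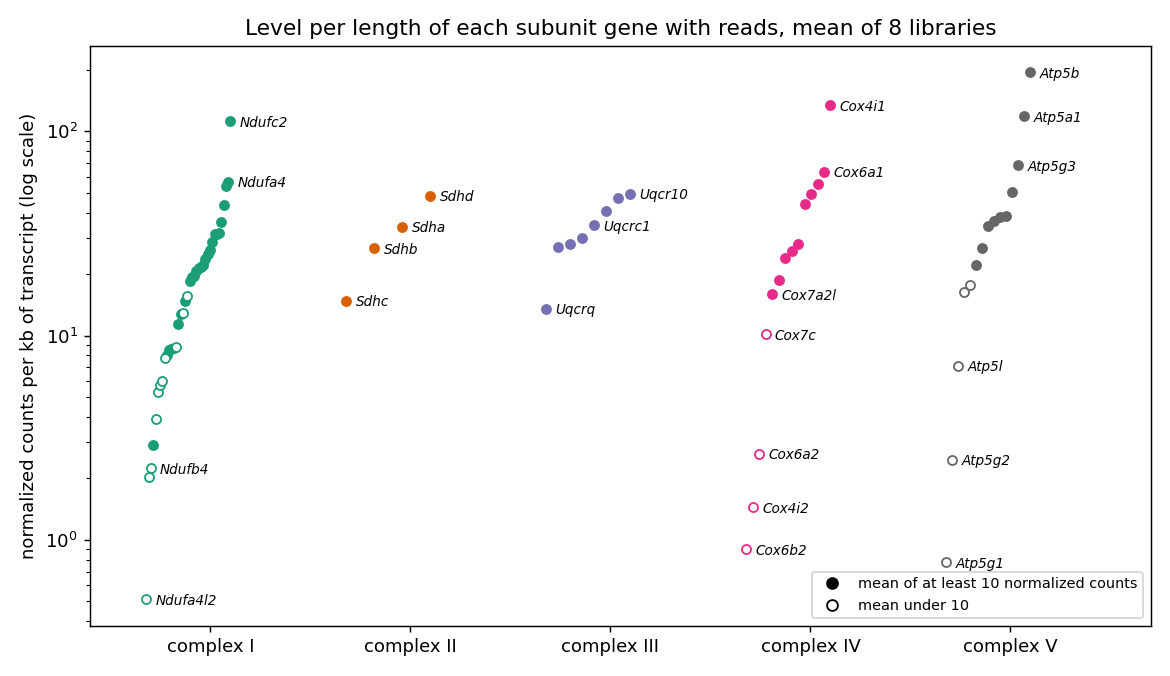
Mean normalized count per kilobase of transcript (log scale) of each subunit gene with reads, by complex, over the 8 libraries. Filled points are tested genes and open points are those averaging under 10 normalized counts, and Atp5o and Atp5md, to which no transcript length was assigned, are not drawn. Atp5b, Cox4i1, Atp5a1 and Ndufc2 each exceed 100 per kilobase, and the tissue isoforms Cox6a2, Cox4i2 and Cox6b2 lie near the bottom of complex IV.

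The low end held isoforms known from other tissues. No read fell in any library on Cox7a1 or Cox8b, isoforms of heart and skeletal muscle, on Cox7b2 or Cox8c, known from testis. The pseudogene Ndufa11b and the gene Ndufb4c had no read either. A count of 0 leaves room for 3 reads, worth from 1.96 normalized counts in the deepest library to 4.88 in the shallowest. Cox6a2, the muscle isoform, had 14 reads in 3 libraries and Cox6b2, the testis isoform, 6 reads in 3 libraries. Cox4i2, an isoform of complex IV known from the lung, had 9 reads in 4 libraries, and Cox4i1 made up 99.02% of the reads on that pair. Ndufa4l2, a paralog of Ndufa4 known to be induced by hypoxia, had 5 reads, all in 1 library. Of the 3 genes for the c-ring of the ATP synthase, Atp5g3 took 89.7% of the reads, with 428 reads against 31 on Atp5g1 and 18 on Atp5g2.

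The remaining genes with reads and an average under 10 were Ndufa5, Ndufab1, Ndufb4, Ndufb6, Ndufc1, Ndufs3, Ndufs4, Ndufs5, Ndufs6 and Ndufs8 of complex I, Cox7c of complex IV, and Atp5k, Atp5l, Atp5md and Atp5mpl of complex V, which with the isoforms above makes 21. Atp5mpl, a small ATP synthase subunit, averaged 9.98 and lay closest to the minimum. Near-identical transcripts, with at least 95% identity over at least 50% of their length, were annotated for 10 of the genes with reads, so reads on them may be split or shared. Atp5l, a membrane subunit of the ATP synthase, had 9 such copies, and Atp5h and Uqcrb had 3 each. Atp5o, with 2 protein-coding GENCODE entries of its name, and Atp5md, with 0, were not searched for copies.

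In complex I the libraries were uneven for several genes. Ndufc2 took 10.6% of the complex I reads in all, with 6.72% to 20.5% in single libraries. It had 59.5 and 83.1 normalized counts in cKO HDM libraries, 45.0 and 43.8 in WT HDM libraries, 187 and 64.8 in cKO PBS libraries, and 65.1 and 63.7 in WT PBS libraries. The first cKO PBS library stood far above the rest for this gene, and likewise for Ndufb11, a membrane arm subunit, at 79.7 there against 13.8 to 29.7 elsewhere. Ndufa4 is named for complex I and now placed in complex IV, and was counted in complex I here by its symbol. It had 63.1 and 18.3 in cKO HDM libraries, 43.0 and 19.3 in WT HDM libraries, 76.5 and 12.7 in cKO PBS libraries, and 27.6 and 16.4 in WT PBS libraries. The ranges of all 4 groups overlapped. By contrast Ndufs7, an iron-sulfur subunit near the ubiquinone site, stayed between 16.4 and 25.7 in all 8 libraries. Ndufb9, an accessory subunit of the membrane arm, stayed between 22.8 and 36.7.

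In complex II, Sdha, the flavoprotein that oxidizes succinate (chromosome 13, 74322255 to 74350240), took 41.5% of the reads. It had 80.5 and 100.5 normalized counts in cKO HDM libraries, 110 and 90.2 in WT HDM libraries, 107 and 114 in cKO PBS libraries, and 84.96 and 101 in WT PBS libraries. Its coefficient of variation over the 8 libraries was 12.4%, and the cKO PBS pair lay highest on average without a clear gap to WT HDM. Sdhb, the iron-sulfur subunit that receives the electrons, had 11.6 and 35.7 in cKO HDM libraries, 46.3 and 40.0 in WT HDM libraries, 37.4 and 30.5 in cKO PBS libraries, and 11.5 and 30.9 in WT PBS libraries. The low libraries of Sdhb were the first of cKO HDM and the first of WT PBS.

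The membrane anchors of complex II, Sdhc and Sdhd, shared a different order. Sdhd had 64.6 and 81.4 normalized counts in cKO HDM libraries, 44.3 and 51.6 in WT HDM libraries, 47.2 and 49.5 in cKO PBS libraries, and 63.5 and 74.6 in WT PBS libraries. Sdhc had 66.8 and 54.0 in cKO HDM libraries, 34.6 and 52.9 in WT HDM libraries, 42.3 and 31.7 in cKO PBS libraries, and 45.2 and 48.2 in WT PBS libraries. In both genes cKO HDM libraries lay above WT HDM libraries and cKO PBS libraries lay below WT PBS libraries, and none of these differences passed the test.

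In complex III the core proteins Uqcrc1 and Uqcrc2 took 45.1% of the reads. Uqcrc1 had 69.7 and 43.2 normalized counts in cKO HDM libraries, 38.5 and 51.6 in WT HDM libraries, 91.1 and 49.5 in cKO PBS libraries, and 62.8 and 51.8 in WT PBS libraries. Uqcrc2 was steadier, at 57.3 and 64.8 in cKO HDM libraries, 46.3 and 52.9 in WT HDM libraries, 60.2 and 67.3 in cKO PBS libraries, and 45.2 and 63.7 in WT PBS libraries. Uqcrc2 varied by 14.7% over the libraries and Uqcrc1 by 29.5%. Uqcrfs1, the Rieske iron-sulfur protein, had 24.4 and 26.7 in cKO PBS libraries and 28.2 to 49.1 in the other 6 libraries.

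In complex IV, Cox4i1 (chromosome 8, 120668225 to 120674209) took 30.8% of the reads. It had 112 and 110 normalized counts in cKO HDM libraries, 112 and 126 in WT HDM libraries, 86.2 and 57.1 in cKO PBS libraries, and 102 and 113 in WT PBS libraries. Both cKO PBS libraries lay below the other 6. Cox5a, a subunit on the matrix side (chromosome 9, 57517328 to 57532427), had 42.1 and 33.2 in cKO HDM libraries, 13.7 and 29.7 in WT HDM libraries, 11.4 and 20.3 in cKO PBS libraries, and 34.4 and 42.7 in WT PBS libraries. Cox6a1, the isoform of tissues other than muscle, had 4.88 in the first cKO PBS library and 30.9 to 50.3 in the other 7. Among the other isoforms Cox6b1 averaged 30.5, Cox8a 30.3, Cox7b 26.0, Cox7a2l 17.1 and Cox7a2 15.8.

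In complex V, Atp5a1 and Atp5b took 66.0% of the reads. Atp5a1 had 269 and 312 normalized counts in cKO HDM libraries, 261 and 290 in WT HDM libraries, 333 and 292 in cKO PBS libraries, and 305 and 282 in WT PBS libraries. Its coefficient of variation, 8.03%, was the smallest of the 60 genes, which ranged up to 87.1% for Ndufa3, a small membrane subunit of complex I. Atp5b had 477 and 368 in cKO HDM libraries, 293 and 349 in WT HDM libraries, 434 and 419 in cKO PBS libraries, and 312 and 326 in WT PBS libraries. All 4 cKO libraries of Atp5b lay above all 4 WT libraries. The share of all genes with such a separation was not computed.

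The smaller stalk subunits of complex V were less even. Atp5o, which joins the catalytic head to the side stalk, had 20.3 and 25.7 normalized counts in cKO HDM libraries, 11.1 and 11.6 in WT HDM libraries, 17.9 and 15.2 in cKO PBS libraries, and 29.9 and 29.1 in WT PBS libraries. Its 4 pairs did not overlap each other. Atp5e, the epsilon subunit of the central stalk, had 30.5 and 21.6 in cKO HDM libraries, 17.0 and 42.5 in WT HDM libraries, 0 and 15.2 in cKO PBS libraries, and 28.3 and 14.5 in WT PBS libraries. The value of 0 came from the shallowest library, where 3 reads are worth 4.88. Atp5d, the delta subunit of that stalk, had 98.0 in the second WT HDM library and 35.6 to 45.9 in the other 7.

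**Figure D2:**
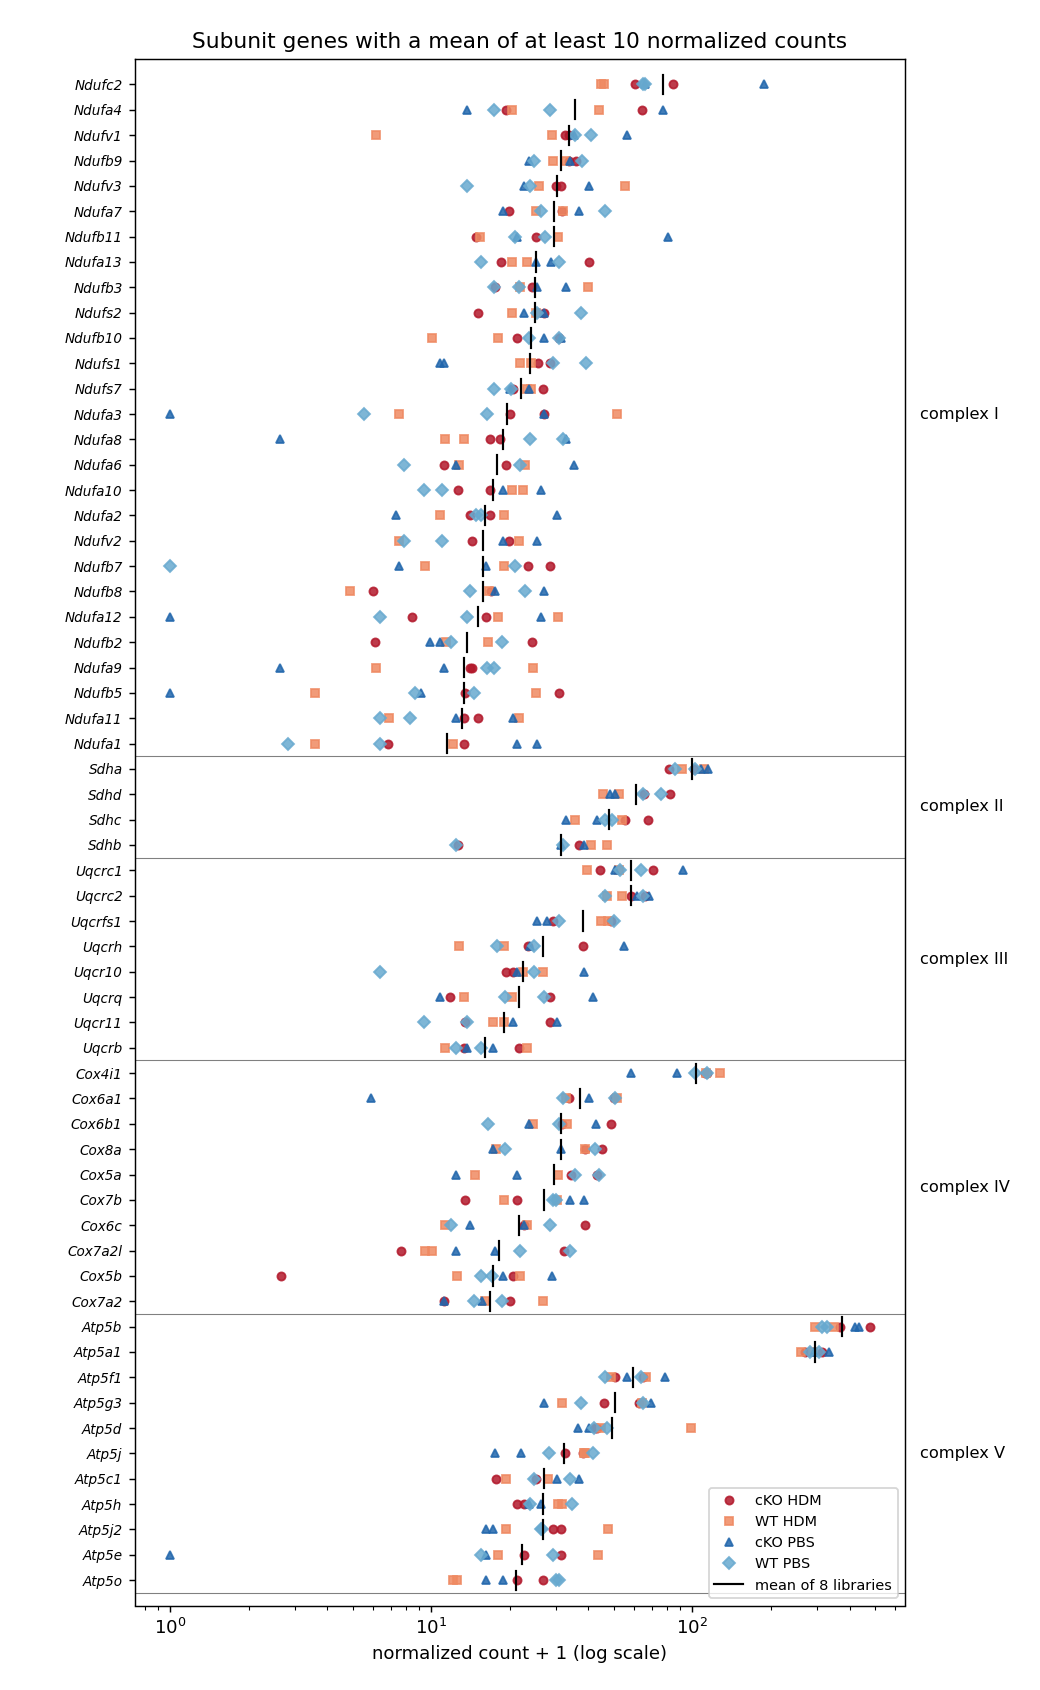
Normalized count plus 1 (log scale) of each of the 60 tested subunit genes in every library, grouped by complex, with a black line at the mean of the 8 libraries. The groups are intermixed for most genes, and the points of Atp5a1 and Sdha lie closest together.

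The chi-square between the 2 libraries of a group, per degree of freedom and relative to counting noise, had a median of 3.77 over the 60 genes and 4.65 over all genes tested. It ranged from 0.25 to 19.2, with the highest values in Ndufa4 (19.2), Ndufa3 (18.8) and Ndufc2 (12.2). The spread between libraries was therefore larger than counting error for most subunit genes.

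Together the 87 genes took 0.734% and 0.666% of the reads in cKO HDM libraries, 0.568% and 0.623% in WT HDM libraries, 0.724% and 0.641% in cKO PBS libraries, and 0.659% and 0.640% in WT PBS libraries. The WT HDM pair was lowest and the cKO HDM pair lay above WT PBS. In a bulk sample, fewer cells of a type and less RNA per cell cannot be told apart. The WT HDM libraries were also those with the highest share of fibroblast, endothelial and alveolar type 2 genes and the lowest of ciliated genes. The part of these in the subunit share was not tested. As sums of the authors' normalized counts the order was less clear, with 2617 ± 149 in cKO HDM, 2373 ± 251 in WT HDM, 2583 ± 219 in cKO PBS and 2406 ± 20.9 in WT PBS (SD, n = 2 each). By these sums cKO exceeded WT 1.10-fold under HDM, where the libraries overlapped, and 1.07-fold under PBS, where they barely did not. Under PBS the nearest libraries stood at 2428 in cKO and 2421 in WT, and the read shares given above overlapped. Atp5b alone averaged 427 in cKO PBS and 319 in WT PBS libraries. Of the 60 tested genes, 31 had a log2 difference above 0 for cKO against WT under PBS and 29 below. With 2 libraries against 2, no exact permutation test can reach 0.05, so none is given for these sums.

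Counted by symbol, with Ndufa4 in complex I, complexes I and IV differed most between libraries. Ndufa4 had 47 reads in the first cKO PBS library, beside 149 on complex IV. In the second it had 10, beside 243. The gap between these 2 libraries in complex IV thus depends on where Ndufa4 is placed. Shares with Ndufa4 placed in complex IV were not computed. Complex I took 0.241% of the reads in the first cKO PBS library (exact Clopper-Pearson 95% interval 0.222% to 0.262%) and 0.150% to 0.190% in the other 7. Without Ndufc2 and Ndufb11 the complex I share ran from 0.128% to 0.171% over the 8 libraries. Complex IV took the smallest share in the same library, 0.0641% (0.0542% to 0.0752%), against 0.0815% to 0.106% in the other 7. As normalized counts, complex IV summed to 364 ± 43.0 in cKO HDM, 336 ± 18.3 in WT HDM, 275 ± 46.8 in cKO PBS and 354 ± 47.5 in WT PBS (SD, n = 2 each), and both cKO PBS libraries were below all others. Complex V took 0.297% and 0.271% in cKO HDM libraries, 0.218% and 0.262% in WT HDM libraries, 0.274% and 0.278% in cKO PBS libraries, and 0.266% and 0.248% in WT PBS libraries. Complexes II and III stayed between 0.0558% and 0.0720% and between 0.0550% and 0.0826%.

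**Figure D3:**
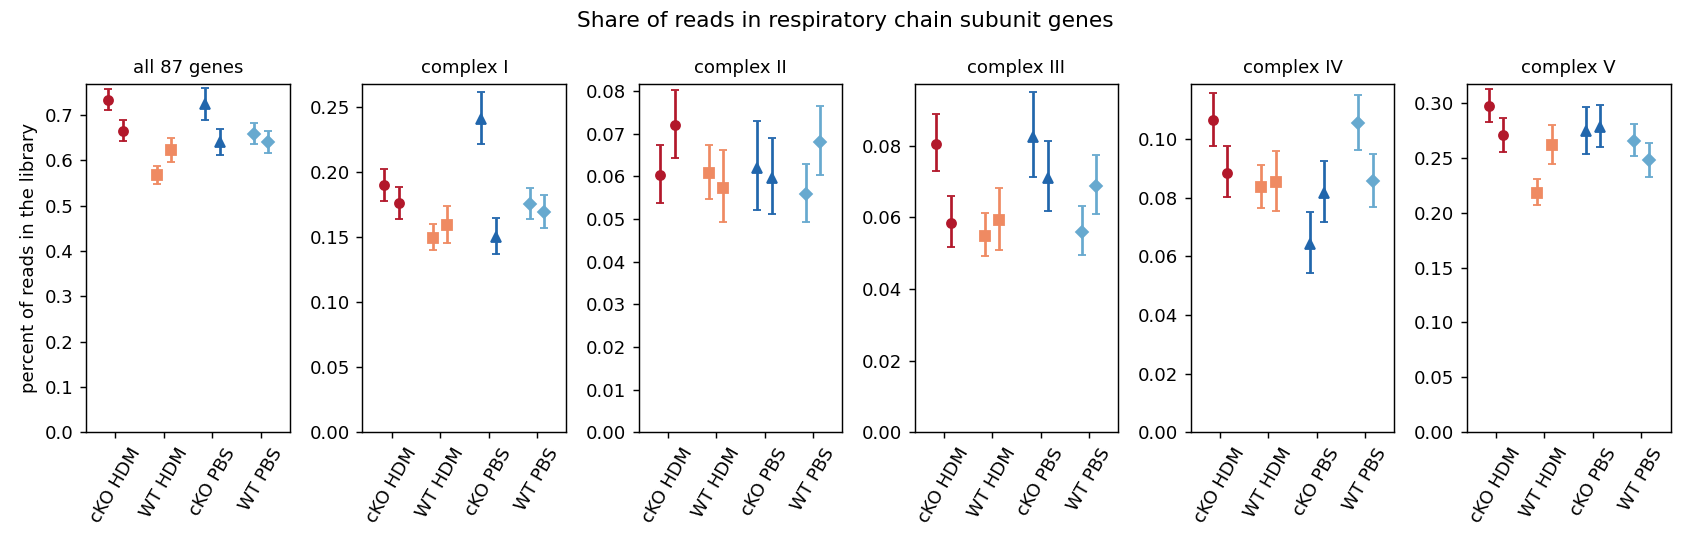
Percent of the reads of each library that fell on all 87 subunit genes and on those of each complex, with exact 95% intervals for counting error, for 2 libraries per group. With Ndufa4 counted in complex I, the first cKO PBS library has the highest share for complex I and the lowest for complex IV.

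The effect of HDM in the presence of STAT3 was asked first. In HDM against PBS in WT, 0 of 60 subunit genes passed by limma, edgeR or DESeq2, while 0.519%, 0.785% and 1.78% of all 7512 genes passed by the same tools. At an unadjusted p under 0.05, limma gave 1 and edgeR 0 of the 60, against 8.93% and 8.56% of all genes. That gene was Ndufv1, the subunit of complex I that binds NADH (chromosome 19, 4007499 to 4012755). It had 28.04 and 5.16 normalized counts in WT HDM libraries, against 34.4 and 40.0 in WT PBS libraries, a log2 difference of -1.51 ± 0.67 (limma adjusted p = 0.514, 95% interval -2.94 to -0.09). Without the second WT HDM library its difference was -0.39. The WT HDM libraries also held the most RNA of fibroblast and endothelial markers, given above. The 18 measured genes of ciliated cells took 0.545% to 0.549% of reads there and 0.898% to 0.908% in WT PBS libraries. For the 11 alveolar type 2 genes it was 2.76% to 3.77% against 1.23% to 1.69%. Erythroid genes took 0.0592% to 0.104% against 0.00666% to 0.00973%. Club cell genes took 1.56% to 1.93% against 2.34% to 2.53%, and goblet cell genes 0.394% to 0.696% against 0.113% to 0.213%. The part of these markers in the subunit values was not tested.

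The next smallest p-values were those of Atp5o (-1.30 ± 0.65), Sdhb (1.14 ± 0.65), Cox7a2l (-1.48 ± 0.85), Ndufv3 (1.06 ± 0.60), Ndufb10 (-1.01 ± 0.63), Cox5a (-0.89 ± 0.60) and Ndufa10 (1.07 ± 0.74), all as log2 differences that did not pass. The narrowest limits were those of the catalytic head of complex V. Atp5b stood at 0.01 ± 0.23 with a 95% interval of -0.48 to 0.50, and Atp5a1 at -0.09 ± 0.23 with an interval of -0.59 to 0.41. The interval of 6 of the 60 genes lay within 1 log2 unit of 0 on both sides, and that of 34 within 2 units, so that a difference of 2-fold was not excluded for most subunits with these libraries. The median log2 difference was 0.02 over the subunit genes and -0.03 over all genes. By complex it was -0.01 for I, -0.01 for II, 0.05 for III, -0.05 for IV and 0.07 for V. Both HDM libraries lay above both PBS libraries in 7 genes (11.7%, against 21.2% of all genes) and below them in 11 (18.3%, against 20.8%).

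The same contrast in cKO mice addressed the response to HDM in the knockout. Again 0 subunit genes passed by limma, edgeR or DESeq2, where limma and edgeR each called 0.0532% of all genes and DESeq2 0.373%. At an unadjusted p under 0.05, limma gave 1 and edgeR 0, against 7.77% and 6.76% of all genes. It was Atp5e (chromosome 2, 174461075 to 174464101), with 30.5 and 21.6 normalized counts in cKO HDM libraries, against 0 and 15.2 in cKO PBS libraries. Its log2 difference was 2.73 ± 1.08 (limma adjusted p = 0.551, 95% interval 0.43 to 5.02). Without the second cKO PBS library, which leaves the shallowest library alone, Atp5e reached 4.74 ± 0.88 (limma adjusted p = 0.00621) and Cox6a1 reached 2.80 ± 0.62 (limma adjusted p = 0.0167), while 4.26% of all genes passed. Without the first cKO PBS library Atp5e was at 0.72 and Cox6a1 at 0.023, and neither passed, so both values rested on that library.

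Among the complexes, complex IV had the highest median here, with no gene past the threshold. Cox4i1 stood at 0.66 ± 0.33 (95% interval -0.03 to 1.35), Cox5a at 1.24 ± 0.60 and Cox6a1 at 1.41 ± 0.73. In the other direction, Cox7b stood at -1.09 ± 0.58 and Cox5b, a zinc-binding subunit, at -1.66 ± 0.96, or -0.18 without the second cKO HDM library. The median of the 10 complex IV genes was 0.48, with 8 of 10 above 0, against a median of 0.10 over all genes, and the sum of complex IV was 1.32-fold that of PBS. In the same comparison the club cell genes took 1.88% to 2.36% of reads in cKO HDM libraries and 2.96% to 3.999% in cKO PBS libraries, and the goblet cell genes 0.551% to 1.33% in cKO HDM libraries and 0.280% to 0.342% in cKO PBS libraries, and their part in the complex IV values was not tested. The median log2 differences were 0.02 for complex I, 0.14 for II, -0.24 for III and 0.16 for V, and 0.04 over the 60 genes. Of complex I, Ndufs1, the largest iron-sulfur subunit (chromosome 1, 63143592 to 63176822), stood at 1.30 ± 0.61, and Ndufb5 at 2.75 ± 1.36, or 1.16 without the second cKO PBS library. HDM libraries lay above PBS libraries in 16 genes (26.7%, against 19% of all genes) and below in 10 (16.7%, against 16.7%).

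Under HDM, the comparison of cKO with WT gave 0 subunit genes by limma, edgeR or DESeq2, and 0 at an unadjusted p under 0.05 by limma or edgeR. Of all genes, limma called 0.572%, edgeR 0.719% and DESeq2 1.68%, and 9.6% had an unadjusted p under 0.05 by limma and 9.16% by edgeR. Ndufv1 was nearest, with 32.7 and 31.6 normalized counts in cKO HDM libraries, against 28.04 and 5.16 in WT HDM libraries. Its log2 difference was 1.31 ± 0.67 (limma adjusted p = 0.562, 95% interval -0.12 to 2.73), and 0.19 without the second WT HDM library. Atp5b, with the narrowest interval, stood at 0.39 ± 0.23 (95% interval -0.10 to 0.88), which leaves out a difference of 2-fold either way. Sdhb stood at -1.03 ± 0.65, or -0.26 without the first cKO HDM library, Sdhd at 0.59 ± 0.38, Ndufb10 at 0.94 ± 0.63, Atp5o at 0.95 ± 0.65, Uqcrh, the hinge protein of complex III, at 0.94 ± 0.64, and Ndufc2 at 0.65 ± 0.45. Of the tested genes shown above with a STAT motif, Ndufa8 stood at 0.51 ± 1.01, Atp5o at the value just given and Atp5d at -0.64 ± 0.46, and none passed. Atp5d was at -0.062 without the second WT HDM library, where it was high.

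Of the 60 genes, 36 had a log2 difference above 0 (60%, against 50.8% of all genes) and 24 below. Their median was 0.13, against 0.02 over all genes. It was 0.21 for complex I, 0.17 for II, 0.13 for III, 0.23 for IV and 0.01 for V. In 14 genes (23.3%, against 21.1% of all genes) both cKO libraries lay above both WT libraries, and in 7 (11.7%, against 21.9%) below. Marker levels differed between the same groups. The 18 measured genes of ciliated cells took 1.00% to 1.04% of reads in cKO HDM libraries and 0.545% to 0.549% in WT HDM libraries, and the 11 alveolar type 2 genes 1.30% to 1.41% in cKO HDM libraries and 2.76% to 3.77% in WT HDM libraries. Of 12 macrophage and leukocyte genes Ly6g was at 0, and the list took 0.000196% to 0.00110% in cKO HDM libraries and 0.0197% to 0.0589% in WT HDM libraries. Their part in the subunit values was not tested.

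Without allergen, cKO against WT gave 0 subunit genes by limma, edgeR or DESeq2, and each of these tools called 0% of all genes. At an unadjusted p under 0.05, limma gave 3 and edgeR 2, against 6.96% and 5.46% of all genes. Ndufs1 had 9.76 and 10.2 normalized counts in cKO PBS libraries (6 and 8 reads), against 28.3 and 38.2 in WT PBS libraries. Its log2 difference was -1.63 ± 0.61 (limma adjusted p = 0.694, 95% interval -2.94 to -0.32), and its cKO PBS libraries were also below all 4 HDM libraries, at 20.9 to 27.4. Cox5a stood at -1.28 ± 0.60 (limma adjusted p = 0.704) and Atp5e at -2.41 ± 1.08 (limma adjusted p = 0.701). Without the second cKO PBS library 3 genes passed, namely Atp5e (-4.42 ± 0.88, limma adjusted p = 0.01003), Cox6a1 (-2.78 ± 0.62, limma adjusted p = 0.0187) and Ndufa8, an accessory subunit of complex I (-3.40 ± 0.89, limma adjusted p = 0.0426), beside 4.19% of all genes. All 3 were low in the first cKO PBS library and not in the second. Without the first, Atp5e was at -0.40, Cox6a1 at 0.0042 and Ndufa8 at 0.24.

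Of the other genes, Ndufa1 stood at 2.46 ± 1.18, Cox4i1 at -0.60 ± 0.33, Atp5b at 0.42 ± 0.23 and Ndufc2 at 0.77 ± 0.45. Ndufa1 had 7 and 2 reads in the WT PBS libraries. In the second it was at 1.82 normalized counts, where 3 reads are worth 2.73, and without that library its difference was 1.87. Without the first cKO PBS library, where it was high, Ndufc2 was at 0.0090. The median over the 60 genes was 0.10, against -0.09 over all genes. It was -0.31 for complex IV and -0.20 for complex V, and 0.23 for complex I, -0.04 for II and 0.24 for III. The sum of complex IV was 0.779 times that of WT PBS, without overlap of the libraries. The sums of complexes III and V were 1.26 and 1.10 times, again without overlap. Complex V summed to 1045 in cKO PBS and 951 in WT PBS, and Atp5b alone averaged 427 and 319, a wider gap than that of the sum. Of the 11 tested complex V genes, 4 had a log2 difference above 0 and 7 below. With the first cKO PBS library alone on the cKO side, complex IV was at 0.685 times and complex III at 1.35 times. With the second alone they were at 0.872 and 1.16 times. Ndufa4, counted in complex I here, had 76.5 normalized counts in the first cKO PBS library and 12.7 in the second. In WT PBS libraries it had 27.6 and 16.4, so the complex IV ratios depend on its placement. The 7 club cell genes took 2.96% to 3.999% of reads in cKO PBS libraries and 2.34% to 2.53% in WT PBS libraries, and the 7 goblet cell genes 0.280% to 0.342% in cKO PBS libraries and 0.113% to 0.213% in WT PBS libraries. All genes of both lists had reads, and their part in the subunit sums was not tested. In 10 genes (16.7%, against 15.7% of all genes) both cKO libraries lay above both WT libraries, and in 13 (21.7%, against 19.1%) below.

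**Figure D4:**
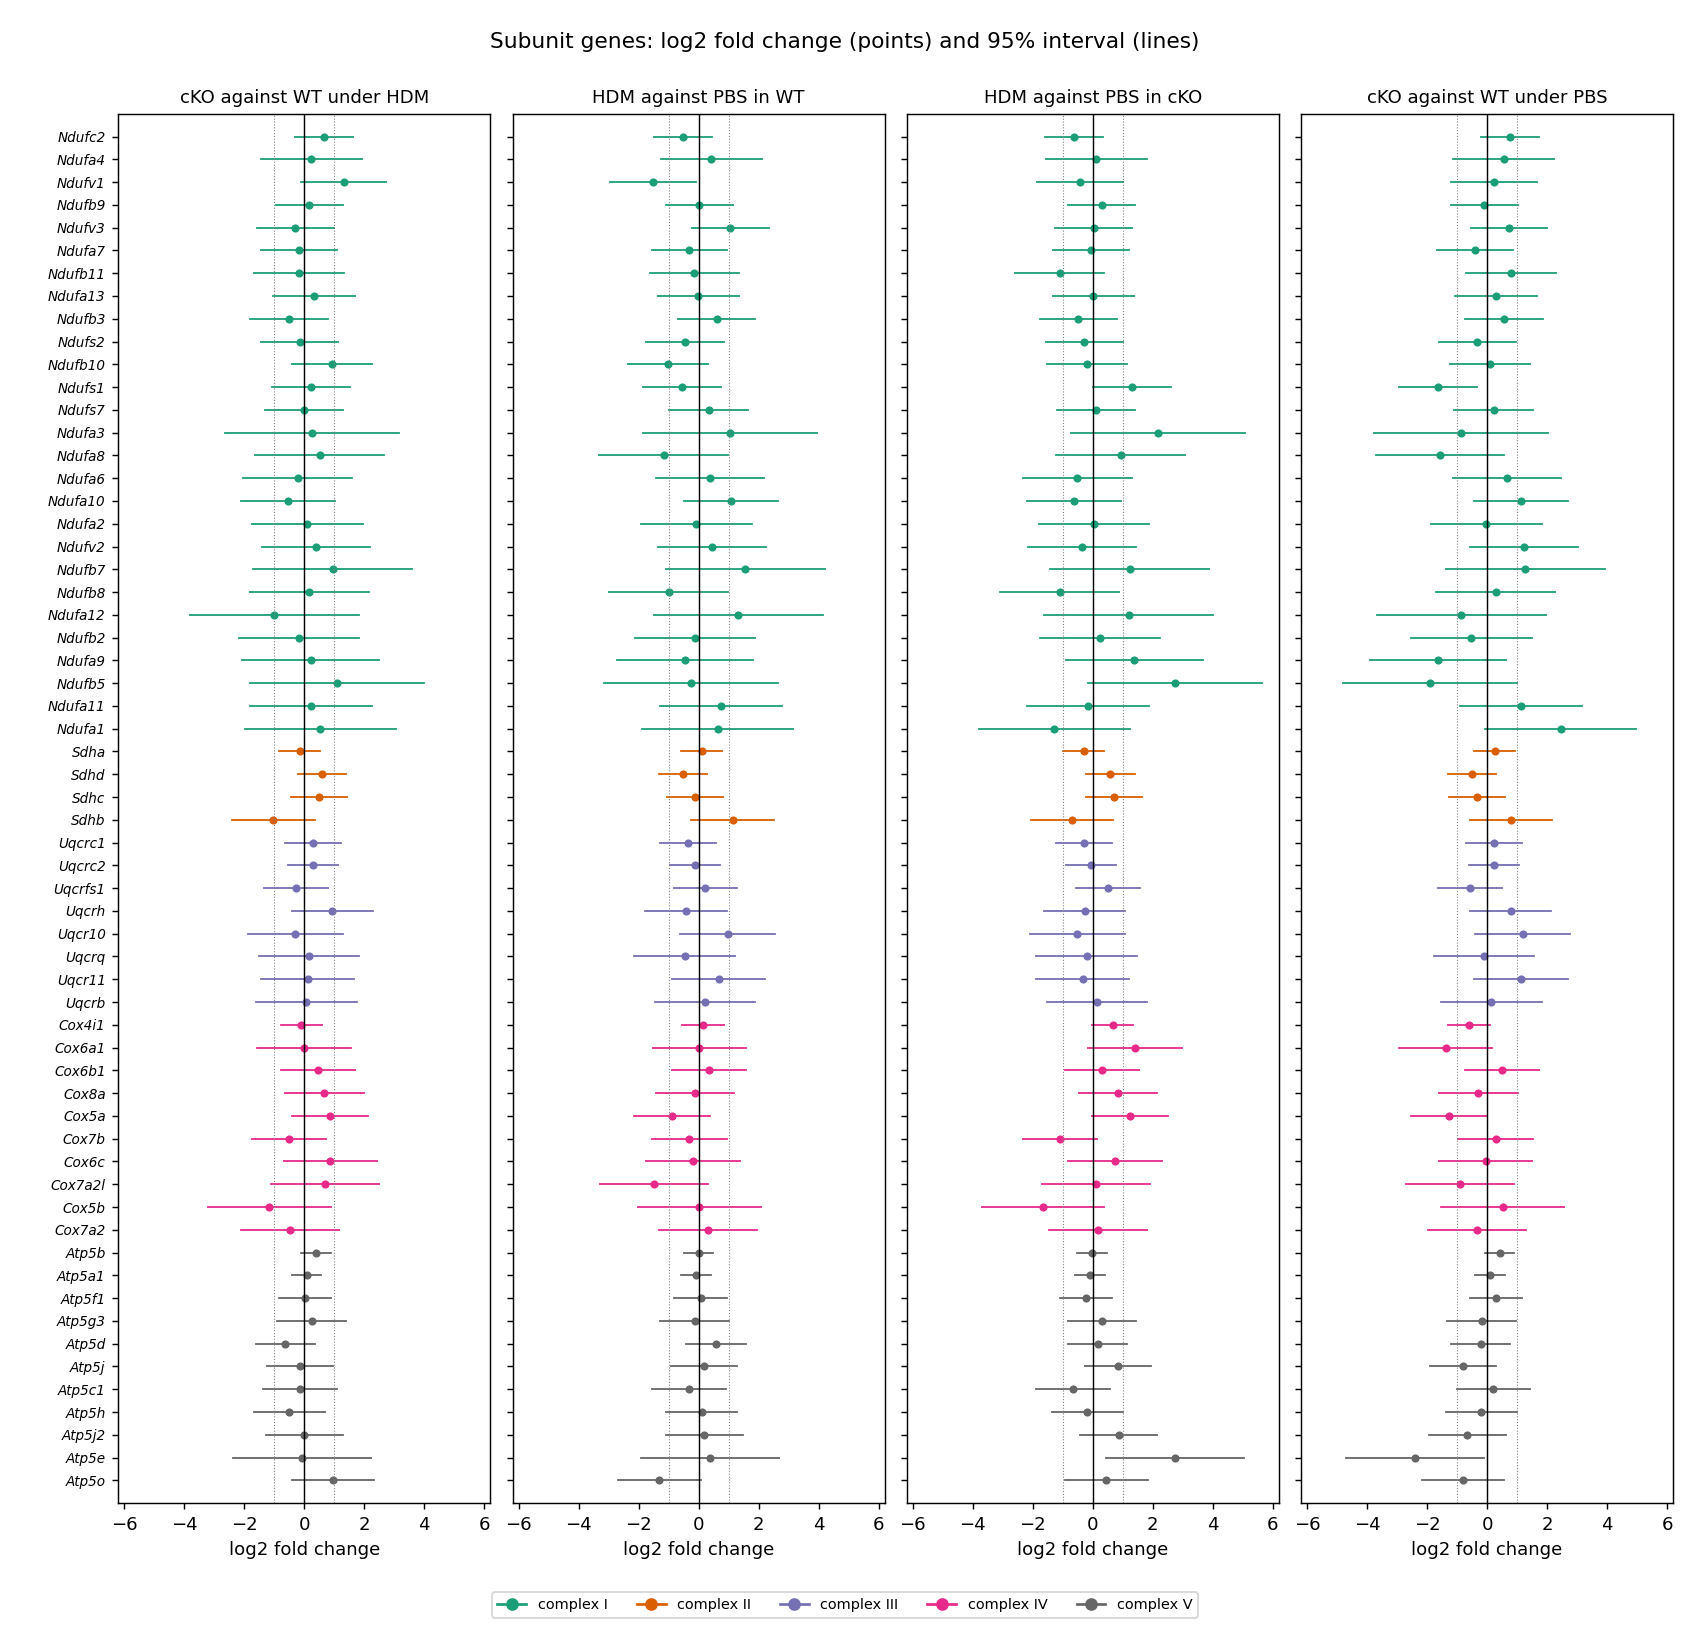
Log2 fold change (points) and 95% interval from limma (lines) of the 60 tested subunit genes in 4 comparisons, coloured by complex, with dotted lines at 2-fold either way. Most intervals cross both 0 and at least 1 dotted line, and those of Atp5a1 and Atp5b are the narrowest.

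Whether the response to HDM differed between the genotypes was tested as an interaction, cKO minus WT. None of the 60 subunit genes passed by limma, edgeR or DESeq2, where these called 0.0266%, 0.0932% and 0.359% of all genes. At an unadjusted p under 0.05 limma and edgeR each gave 2, against 7.77% and 7.52% of all genes. By limma these were Cox5a, at 2.13 ± 0.85 (limma adjusted p = 0.586, 95% interval 0.33 to 3.93), and Ndufs1, at 1.86 ± 0.87 (limma adjusted p = 0.636). Cox5a had higher values with HDM in cKO and lower values with HDM in WT. Sdhd stood at 1.09 ± 0.54, Sdhb at -1.83 ± 0.92 and Atp5o at 1.75 ± 0.91, all short of the threshold. The median was 0.04 over the 60 genes, 0.72 over the 10 of complex IV and 0.16 over all genes. The standard error had a median of 0.90, and the interval of 2 of the 60 genes lay within 1 log2 unit of 0.

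**Figure D5:**
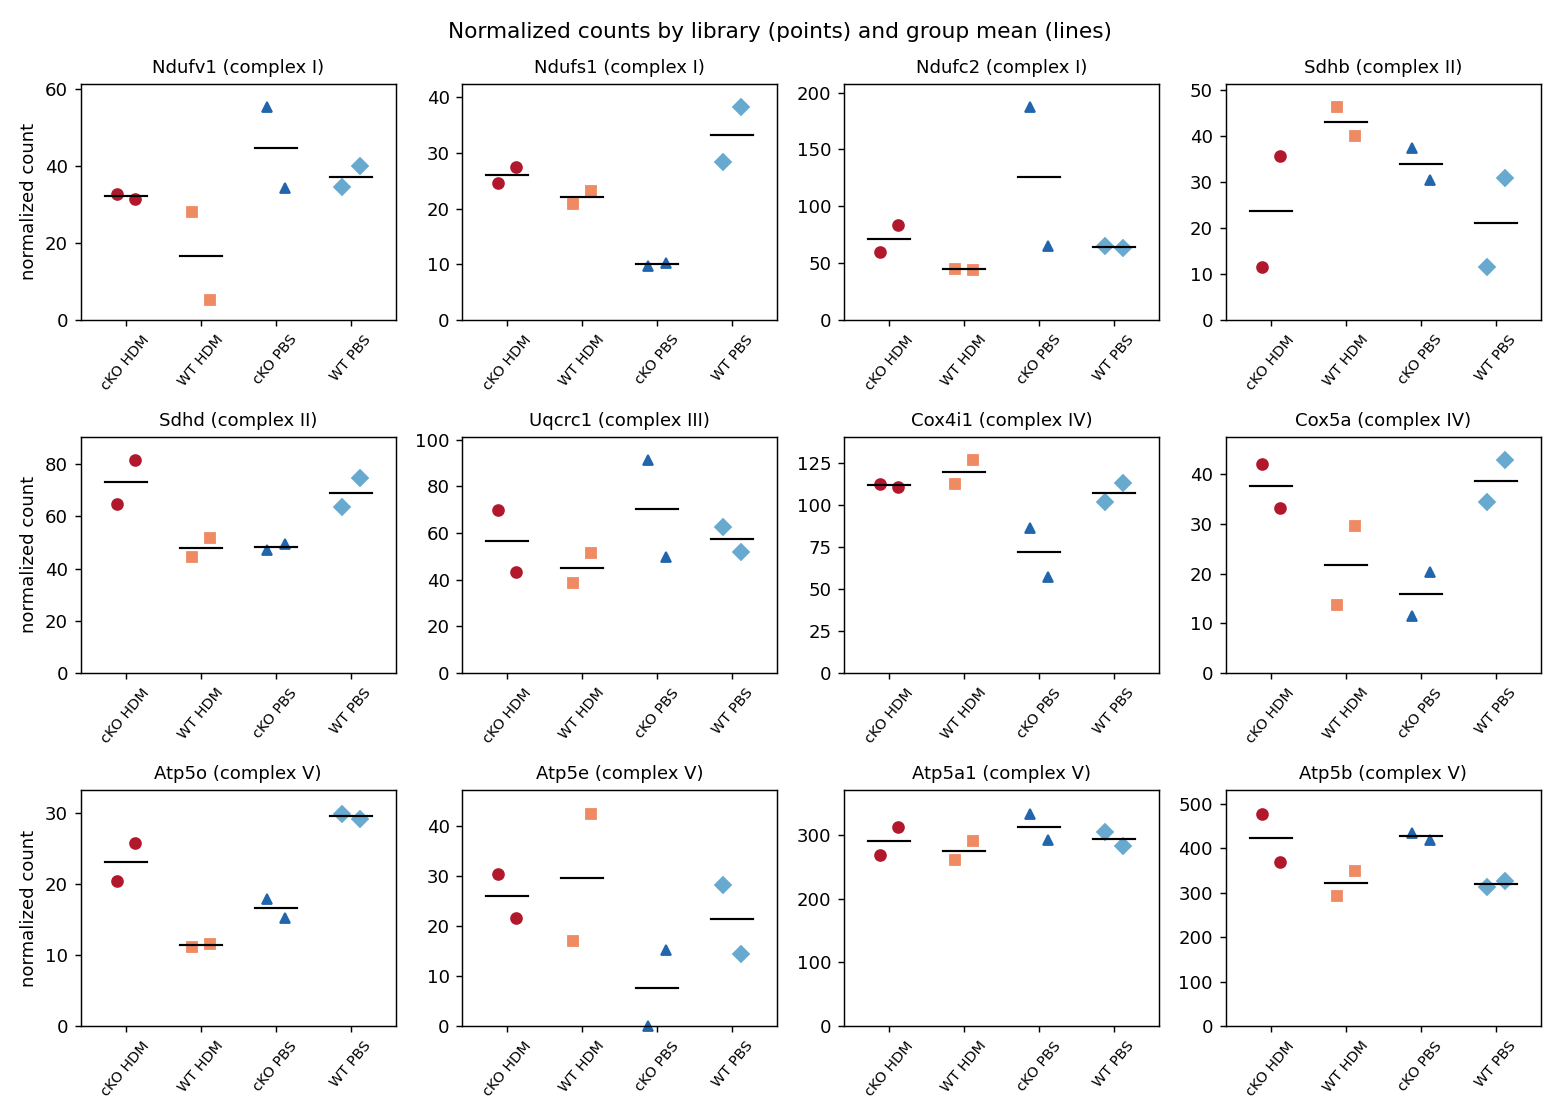
Normalized counts of 12 subunit genes in each library (points) with the group mean (lines), from left to right cKO HDM, WT HDM, cKO PBS and WT PBS. Ndufs1, Cox4i1 and Cox5a are lowest on average in cKO PBS, Atp5b is higher in both cKO groups, and Atp5a1 is nearly level.

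Each contrast of treatment shares groups with those of genotype, so a gene that is high or low in 1 pair of libraries appears in more than 1 of them. Atp5b had log2 values of 0.39 under HDM and 0.42 under PBS for cKO against WT, which rest on separate libraries, and neither passed. Cox5a and Ndufs1 were low in cKO PBS and so gave positive values for HDM in cKO and negative ones for cKO under PBS.

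Genes of neighbouring pathways gave no calls either, where few were likely in lists of this size. Of all genes, limma called 0% to 0.572%, edgeR 0% to 0.785% and DESeq2 0% to 1.78% in the single comparisons. None passed by limma, edgeR or DESeq2 in any of the 5 comparisons among 5 tested electron carrier genes, 12 assembly factors, 26 proteins of the large subunit of the mitochondrial ribosome, 17 genes of the tricarboxylic acid cycle, 5 regulators of mitochondrial biogenesis and 14 of glycolysis. At an unadjusted p under 0.05, limma gave 21 (5.32%) and edgeR 17 (4.30%) of these 395 values, where the share of all genes in the single comparisons was 6.96% to 9.6% by limma and 5.46% to 9.16% by edgeR. The tricarboxylic acid cycle, which feeds NADH and succinate to the chain, took 0.328% to 0.333% of reads in cKO HDM libraries, 0.253% to 0.261% in WT HDM libraries, 0.284% to 0.287% in cKO PBS libraries and 0.247% to 0.287% in WT PBS libraries. Its median log2 difference of cKO against WT under HDM was 0.24, with 3 of 17 genes at an unadjusted p under 0.05 by limma, and that of the mitochondrial ribosome list was 0.49, with 1 of 26. Over all genes that median was 0.02, and 9.6% had such a p. The ribosome list took 0.165% to 0.166% in cKO HDM libraries, 0.121% to 0.144% in WT HDM libraries, 0.128% to 0.138% in cKO PBS libraries and 0.134% to 0.146% in WT PBS libraries. Glycolysis took 0.291% to 0.312% in cKO HDM libraries and 0.243% to 0.291% in WT HDM libraries, with a median of 0.17 for cKO against WT under HDM.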

How the data were processed

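RNA from sorted lung epithelial cells was sequenced in 8 libraries, 2 in each of 4 groups. The deposited signal values are read counts per gene after the authors' normalization. HOMER, DESeq2 and the build mm10 are named per the submitters' processing notes, while the sources used here do not give the aligner, the annotation, tool versions or the use of strand in counting. Reads of a gene and of an antisense or overlapping partner may therefore be mixed.

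Every value was a whole multiple of the value of 1 read in its library (100% within a tolerance of 0.01), which gave back 232556 to 593200 whole reads. Values were tested as log2(value + 1) for the 7512 genes with a mean of at least 10, with 1 mean per group over all 8 libraries, in limma 3.58.1 (trend) under R 4.3.3. P-values were two-sided and adjusted by Benjamini-Hochberg over all 7512 genes, with a threshold of 0.05. Fold changes are on the log2(value + 1) scale and understate those of low genes, and errors after log2 differences are standard errors. edgeR 4.0.16 and DESeq2 1.42.0 were run on the recovered whole reads. The test was also tried on simulated data. Intervals on shares are exact Clopper-Pearson intervals and, like the floor of 3 reads, cover counting error only.

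The subunit genes and the lists were chosen with earlier results of these data known. Genes were named by rule, as the 8 smallest p-values of a comparison, the 2 highest means of each complex, the isoform sets and Sdha to Sdhd, and others only to describe single libraries, after their values were seen. Lengths are those of the principal transcript in GENCODE M21, positions and promoters are from RefSeq GRCm38.p6 (the sequence of mm10). Alternatives were the pseudocount, the filter, the scaling, the variance trend, a replicate block, fits of the compared groups alone and each library left out in turn.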

Additional observations from a re-analysis of the deposited data

Results flagged for a closer look

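In 7 subunit genes both libraries of a group moved one way and both of the matching group the other. For HDM against PBS, in cKO against in WT, these were Atp5o (interaction log2 value 1.75), Cox5a (2.13), Ndufa10 (-1.69), Ndufb3 (-1.08), Ndufs1 (1.86) and Sdhd (1.09). For cKO against WT, under HDM against under PBS, Sdhc (0.82) took the place of Ndufb3. That is 6 of 60 genes (10%) for each contrast, against 7.77% and 7.10% of all genes tested. None passed the interaction test after adjustment over all genes (limma adjusted p = 0.586 to 0.756).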

How the results depend on the processing

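The count of subunit genes that passed was 0 in every comparison under every alternative run but 1. Without the second cKO PBS library it was 2 for HDM against PBS in cKO and 3 for cKO against WT under PBS, so that leaving out each library gave 0 to 2 and 0 to 3, and the number of all genes called reached 320 and 315. With 1 library left, its spread is assumed to be that of the other groups. With a replicate block the count was 0 in all 5 comparisons. Libraries of the same number did not deviate together (correlations of -0.016 to 0.018). The labels do not say whether the numbers pair the samples, and these correlations, with 1 difference per group, cannot settle it. Median log2 differences of the subunit genes moved with the filter. With a minimum mean of 50, which left 9 subunit genes, they were -0.091 for HDM in WT, -0.11 for HDM in cKO, 0.29 for cKO against WT under HDM and 0.24 under PBS. With no filter they were -0.091 for HDM in WT, -0.11 for cKO against WT under PBS and 0.16 for the interaction. The median for HDM in WT, 0.016, changed sign in 7 of 17 alternatives, and those of the other comparisons in 1 to 4. Leaving out a library gave -0.0052 to 0.18 for cKO against WT under HDM, the lowest without the first WT HDM library, and -0.071 to 0.24 for the interaction. Scaling to library totals changed the median of all genes in the interaction to 0.27, against 0.16 with the authors' scaling, and that of the subunit genes to 0.16, against 0.04. Of 2015 alternative values for 111 results on 30 named genes, 1911 kept their direction and their side of the threshold and 100 uncalled values changed sign, 84 of them with a library left out. The cause of these shifts was not tested. Depth, at a median of 26.4 reads per subunit gene and library, and 2 libraries per group limit these comparisons.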
